A study of Homo sapiens with 12 samples.

Results

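The unfolded protein response and the integrated stress response were followed through 41 genes on 12 expression arrays of 2 Hodgkin lymphoma cell lines, L-1236 and U-HO1. The 41 genes were given as a list of names. A gene entered with the probe set that carried its symbol alone, and where several did, with the brightest over all arrays. This gave values for 40 of the 41 genes, among 18404 genes named this way on the array, and PDIA3, a disulfide isomerase of the endoplasmic reticulum (ER), had no such probe set. The 40 genes were divided by role into 4 stress sensors, 3 transcription factors, 12 ATF4 targets and feedback genes, 13 ER chaperones and folding factors, 7 genes of ER degradation and 1 translocon subunit.

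The study asked what an shRNA against GATA-3, a transcription factor best known from T-helper cells, does to gene expression in these lines. The 4 groups of 3 arrays were L-1236 with a control shRNA described as non-functional, L-1236 with the shRNA against GATA-3, U-HO1 with the control shRNA and U-HO1 with the shRNA against GATA-3. All groups shared the transduction, 3 days of culture and a sort for GFP, after which RNA of 25000 cells was amplified and hybridised. L-1236 was kept in RPMI 1640 and U-HO1 in IMDM, so line and medium cannot be told apart in any comparison of the lines. Both are established lines, no source used here gives the shRNA sequences, and the 3 samples of each group are described as independent with no word on whether they were separate transductions. The p-values therefore measure the spread between these arrays, which may be technical. Values are taken as log2, so a difference of 1 is a doubling.

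Unfolded protein in the ER is sensed by the kinase PERK (EIF2AK3), the nuclease IRE1 (ERN1) and ATF6, a membrane-bound transcription factor released by cleavage. IRE1 splices the XBP1 mRNA, and XBP1 and cleaved ATF6 switch on ER chaperones and the machinery that returns misfolded proteins to the cytosol for degradation. PERK and the amino acid sensor GCN2 (EIF2AK4) phosphorylate eIF2, which lowers general translation while favouring translation of ATF4, the activator of amino acid and stress genes. Cells of the B lineage are known to use the IRE1 and XBP1 branch when they turn into antibody-secreting plasma cells.

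The promoters are shown here because the role groups differ in them independently of any measured value. The genes were listed as members of these responses, so the shares below describe the list and test nothing. RefSeq promoter sequences (GRCh38.p14, 250 bases before to 50 after the gene start) were found for 36 of the 41 genes. The ER stress element, CCAAT and CCACG separated by 9 bases, lay on either strand in 7 of these 36 promoters (19.4%), against 25 of 27305 genes in the whole table (0.0916%). Its holders were XBP1 and 6 chaperone genes, HSPA5, HSP90B1, PDIA6, CALR, CANX and CRELD2. The ER stress element II, ATTGG and CCACG separated by 1 base, lay in 3 of the 36 (8.33%), against 19 of all genes (0.0696%). Its holders were the chaperone genes SDF2L1 and HYOU1 and the degradation gene HERPUD1. The unfolded protein response element TGACGTGG lay in HYOU1 (2.78% of the 36 promoters, against 0.927% of all), where it overlapped an ER stress element II. The C/EBP-ATF element TGATGNAAT, through which ATF4 is known to act, lay in 0 of the 36 and in 1.22% of all genes, which says only that these letters are not in these windows. The holders that differed between the lines are printed with XBP1, whose mRNA is the switch of the IRE1 branch. Each stretch has 20 bases on either side of the match, reads 5′ to 3′ on the strand of the gene, and has the letters of the match in capitals. A match on the opposite strand appears as its reverse complement.
CALR: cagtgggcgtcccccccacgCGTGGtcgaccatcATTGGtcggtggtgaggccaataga
PDIA6: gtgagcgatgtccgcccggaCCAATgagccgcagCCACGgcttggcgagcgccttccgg
HSPA5: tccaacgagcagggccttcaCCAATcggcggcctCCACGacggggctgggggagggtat
CANX: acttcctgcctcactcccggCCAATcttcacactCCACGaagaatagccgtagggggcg
XBP1: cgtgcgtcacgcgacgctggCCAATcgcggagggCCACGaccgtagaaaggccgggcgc
HYOU1: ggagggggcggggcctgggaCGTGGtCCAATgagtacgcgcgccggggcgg
HYOU1, second match: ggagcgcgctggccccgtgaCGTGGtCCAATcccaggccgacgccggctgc
HERPUD1: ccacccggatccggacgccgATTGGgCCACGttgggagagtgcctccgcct

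These stretches lie upstream of their genes in GRCh38.p14. That of CALR is chr19:12938364-12938422 on the plus strand, and its match begins 225 bases before the start. That of PDIA6 is chr2:10812833-10812891 on the minus strand, with the match 86 bases before the start. HSPA5 has chr9:125241371-125241429 on the minus strand, with the match at 66 bases. CANX has chr5:179698758-179698816 on the plus strand, with the match at 151 bases. XBP1 has chr22:28800583-28800641 on the minus strand, with the match at 52 bases. HYOU1 has chr11:119057254-119057304 and chr11:119057360-119057410 on the minus strand, with the matches at 79 and 185 bases. HERPUD1 has chr16:56932005-56932055 on the plus strand, with the match at 117 bases. Of the 10 genes that hold either element, 4 (HSPA5, PDIA6, CALR and HYOU1) were lower in U-HO1, 2 (CANX and HERPUD1) were higher, and 4 (XBP1, HSP90B1, CRELD2 and SDF2L1) did not pass the test, as described below. Holders of the same element therefore differed between the lines in opposite directions.

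Array medians over all 32321 probe sets lay between 6.96 and 7.09. GATA3, the target of the shRNA, read 10.29, 10.69 and 9.95 under the control label of L-1236 and 10.80, 10.00 and 10.24 under the knockdown label (log2 difference 0.03, exact permutation p = 0.9, two-sided). In U-HO1 it read 11.24, 10.90 and 10.24 against 11.07, 10.12 and 10.22 (log2 difference -0.32, exact permutation p = 0.5), where 3 arrays against 3 allow no p below 0.1. The GATA3 values of the labels overlap, and groups are called labelled control and labelled knockdown throughout. In each line labelled knockdown replicate 1 had the highest GATA3 of its group and labelled control replicate 3 the lowest of its own, and the counts below are also given without these arrays. Of 6 Hodgkin line markers, TNFRSF8 (CD30, 9.63 in L-1236 and 10.25 in U-HO1), CCL17 and TRAF1 were higher in U-HO1 (log2 differences 0.62, 0.78 and 3.08). CCL22 and FUT4 were lower (-1.78 and -0.21), and IRF4 was not called (-0.18). This list, summed on a linear scale, ran from 4600 to 5545 in L-1236 and from 5281 to 6632 in U-HO1. All 5 measured T-cell markers averaged between 5.90 and 6.92 in both lines, with 0 of 5 called between them. Of 6 plasma cell markers, PRDM1 was higher in U-HO1 (log2 difference 3.05), MZB1 and TNFRSF17 were lower (-1.10 and -0.60), and SDC1, JCHAIN and CD38 were not called. The sum of the plasma cell list ran from 904 to 981 in L-1236 and from 2310 to 2633 in U-HO1. PRDM1 averaged 7.84 and 10.90 and was the only gene of this list called higher. The larger sum in U-HO1 therefore does not stand for the list as a whole. The B-cell list ran from 1025 to 1386 and from 523 to 576, with PAX5 (-2.00) and BLNK (-0.94) lower in U-HO1. The monocyte list ran from 501 to 541 and from 917 to 1528, with CD68 higher (2.16) and CSF1R lower (-0.26) in U-HO1. CD68 averaged 7.44 and 9.61 and was likewise the only gene of its list called higher. The marker values differ between the lines together with the stress genes described next, and their part in those differences was not tested.

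The lines were compared over all 6 arrays of each, averaged over both labels, by limma with Benjamini-Hochberg adjustment over all probe sets. At an adjusted p under 0.05, 10 of the 40 stress genes were higher in U-HO1, 15 were lower and 15 were not called. Over all probe sets 18% were higher and 17.1% lower. Among probe sets above the median level, where 37 of the 40 genes lie and all 25 calls were kept, 28.2% were higher and 26.1% lower. Asking also for a fold of at least 1.5 left 5 genes higher and 4 lower, against 6.76% and 6.22% of all probe sets. Of the 16160 probe sets above the median level, that rule left 1826 higher and 1677 lower. The 6 arrays of U-HO1 lay wholly above those of L-1236 for 8 of the 40 genes and wholly below for 8, against 11.8% and 11.5% of all probe sets. The median log2 difference of the 40 genes was 0.004, with 20 on either side of 0, and that of all probe sets was 0.02. The 40 genes thus had no common direction. Without the 2 arrays per line whose GATA3 goes against the label, 8 were higher and 10 lower. Over all 32321 probe sets that setting called 4366 higher and 4722 lower, beside 5827 and 5513 with all arrays. In RNA of many cells, fewer cells expressing a gene and less RNA per cell cannot be told apart.

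**Figure D1:**
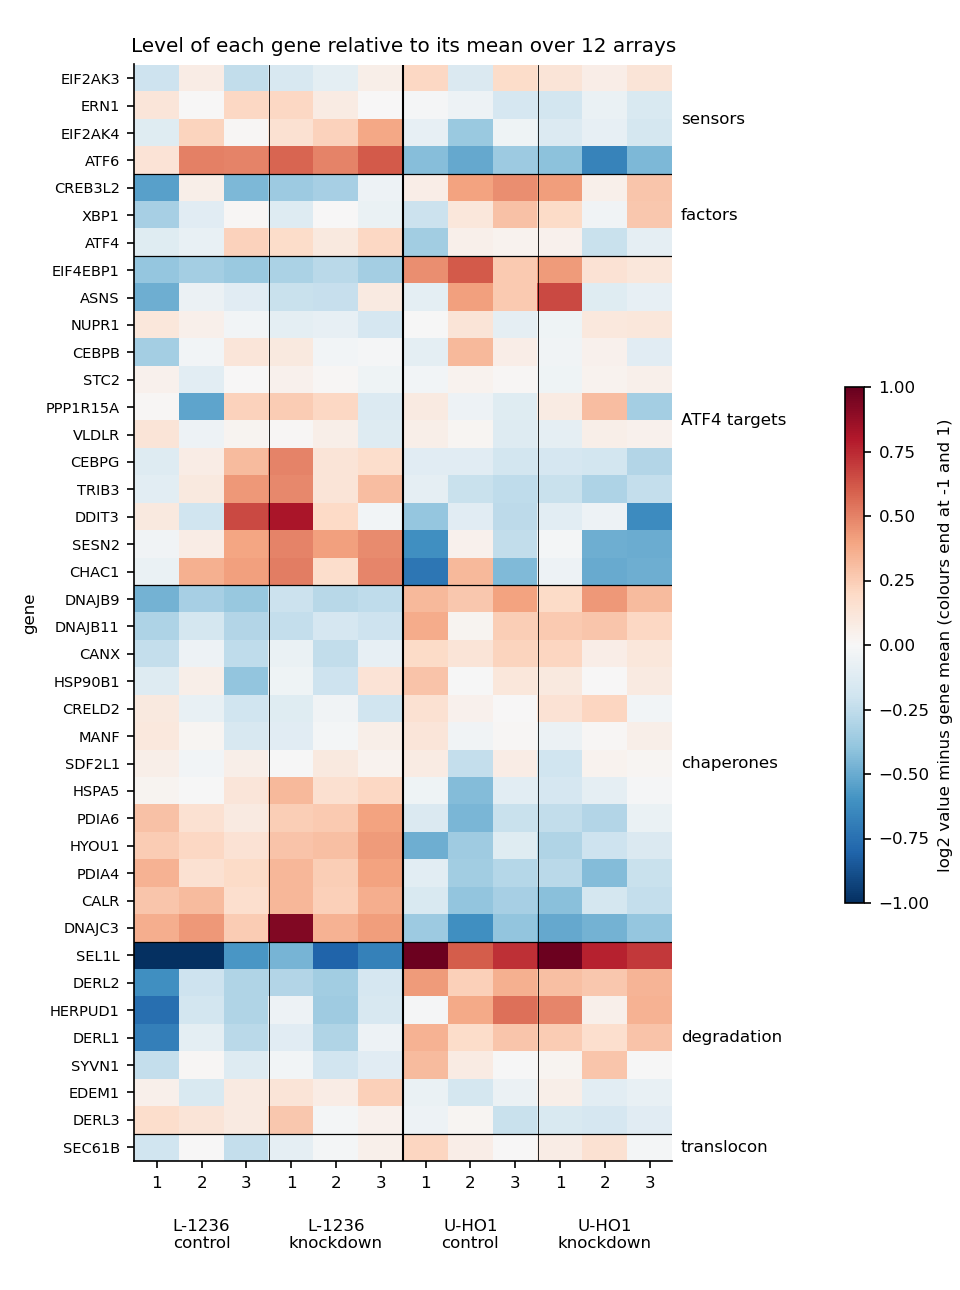
Each row is a gene and each column an array, grouped by line and label with the replicate number below; the colour is the log2 value minus the mean of that gene over the 12 arrays, with colours ending at -1 and 1. SEL1L, DERL1 and DERL2 change colour at the border between the lines in one direction, and ATF6, DNAJC3, CALR, PDIA4 and HYOU1 in the other, while the ATF4 targets vary from array to array within each line.

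**Figure D2:**
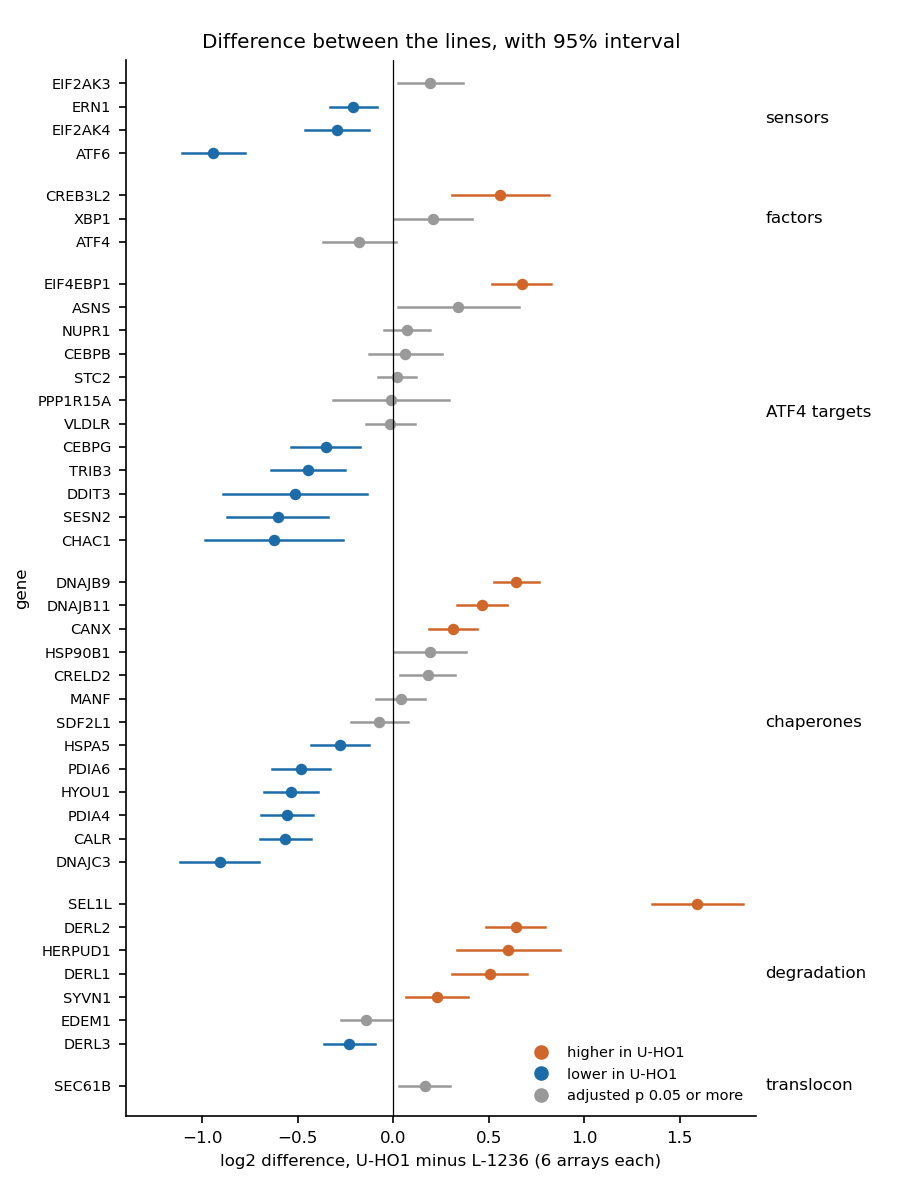
Points are log2 differences, U-HO1 minus L-1236 over 6 arrays each, and bars are 95% intervals of the limma fit; colours mark an adjusted p under 0.05. Degradation genes lie mostly to the right, up to 1.59 for SEL1L, and the chaperones spread from -0.91 for DNAJC3 to 0.64 for DNAJB9.

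Of the 4 sensors, 3 were lower in U-HO1 and 0 were higher, beside 17.1% and 18% of all probe sets. ATF6, the cleaved membrane factor, ran from 10.07 to 10.55 with a median of 10.44 in L-1236, and from 9.27 to 9.58 with a median of 9.50 in U-HO1. No U-HO1 array reached the lowest of L-1236. Its log2 difference was -0.94 (SE 0.08, 95% interval -1.11 to -0.78, adjusted p = 8.86e-07), a level 1.92-fold higher in L-1236. GCN2 (EIF2AK4) ran from 9.25 to 9.77 with a median of 9.56 in L-1236, and from 9.01 to 9.33 with a median of 9.27 in U-HO1, a log2 difference of -0.30 (SE 0.08, adjusted p = 0.00885). The lowest L-1236 array, labelled control replicate 1, lay within the U-HO1 range. IRE1 (ERN1) read 7.62, 7.50 and 7.71 on labelled control and 7.70, 7.58 and 7.51 on labelled knockdown arrays of L-1236. In U-HO1 it read 7.49, 7.45 and 7.33, and 7.31, 7.43 and 7.35. All U-HO1 values lay below those of L-1236, by a log2 difference of -0.21 (SE 0.06, adjusted p = 0.0116). With labelled control arrays alone the adjusted p was 0.219 for EIF2AK4 and 0.118 for ERN1. With labelled knockdown arrays alone that of ERN1 was 0.0549, and without labelled knockdown replicate 1 and labelled control replicate 3 of each line it was 0.224. PERK (EIF2AK3) averaged 7.88 ± 0.14 (SD, n = 6) in L-1236 and 8.08 ± 0.13 in U-HO1 and was not called (log2 difference 0.19, adjusted p = 0.0784).

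Among the 3 transcription factors, only CREB3L2, a membrane-bound relative of ATF6, was called. It ran from 8.42 to 9.03 with a median of 8.62 in L-1236, and from 9.02 to 9.44 with a median of 9.31 in U-HO1. The ranges overlap at 1 array, L-1236 labelled control replicate 2. The log2 difference was 0.56 (SE 0.12, 95% interval 0.31 to 0.82, adjusted p = 0.00215), and it was 0.42 (adjusted p = 0.0749) without labelled knockdown replicate 1 and labelled control replicate 3 of each line. ATF4, the activator of the integrated stress response, read 9.77, 9.82 and 10.12 on labelled control and 10.07, 9.99 and 10.10 on labelled knockdown arrays of L-1236. On U-HO1 arrays it read 9.54, 9.94 and 9.92, and 9.93, 9.67 and 9.80. The lines overlapped and the log2 difference of -0.18 (SE 0.09, adjusted p = 0.149) was not called. A second probe set for ATF4 had the opposite sign and was not called either (log2 difference 0.11, SE 0.12, adjusted p = 0.556). XBP1 read 9.53, 9.74 and 9.87, and 9.73, 9.86 and 9.79 in L-1236. Its U-HO1 values were 9.64, 9.97 and 10.15, and 10.05, 9.82 and 10.13, a log2 difference of 0.21 (SE 0.09, adjusted p = 0.113). XBP1 was read by 1 probe set, which does not separate the spliced form. ATF4 is mainly controlled through translation and ATF6 through cleavage, neither of which an array of mRNA measures.

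The 12 ATF4 targets and feedback genes differed between the lines in both directions. Of the 12, 1 was higher in U-HO1, 5 were lower and 6 were not called, with a median log2 difference of -0.01. Of all probe sets 18% were higher and 17.1% lower, and of those above the median level 28.2% and 26.1%. The gene that was higher was EIF4EBP1, an inhibitor of cap-dependent translation. It read 7.98, 8.02 and 7.99 on labelled control and 8.05, 8.09 and 8.02 on labelled knockdown arrays of L-1236. The U-HO1 values were 8.83, 8.97 and 8.62, and 8.79, 8.50 and 8.48, so that the lines did not overlap. The log2 difference was 0.67 (SE 0.07, 95% interval 0.52 to 0.83, adjusted p = 9.96e-06), a 1.59-fold higher level in U-HO1. EIF4EBP1 was the sole gene of these 12 whose arrays separated the lines, beside 11.8% of all probe sets with U-HO1 above and 11.5% below. Among 21 other ATF4-linked genes, read further below, 8 separated the lines, 4 with U-HO1 above and 4 below. The 5 lower targets overlapped between the lines on at least 1 array.

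CHAC1, an enzyme that degrades glutathione, read 8.66, 9.08 and 9.14, and 9.24, 8.90 and 9.22 in L-1236. It read 8.01, 9.05 and 8.29, and 8.68, 8.22 and 8.24 in U-HO1. U-HO1 labelled control replicate 2 lay among the L-1236 values and the other 5 near or below their lowest, a log2 difference of -0.63 (SE 0.17, adjusted p = 0.0104). SESN2, a sestrin that restrains mTORC1, ran from 8.50 to 9.03 with a median of 8.93 in L-1236. The U-HO1 arrays read 7.92, 8.58 and 8.28, and 8.51, 8.04 and 8.04, again with labelled control replicate 2 the highest, for a log2 difference of -0.60 (SE 0.12, adjusted p = 0.00164). DDIT3 (CHOP), the factor tied to cell death under lasting stress, read 8.93, 8.63 and 9.49, and 9.64, 9.03 and 8.80 in L-1236. On U-HO1 arrays DDIT3 read 8.44, 8.72 and 8.57, and 8.72, 8.78 and 8.20. The L-1236 arrays alone spread over more than the log2 difference between the lines, which was -0.51 (SE 0.17, adjusted p = 0.0352). TRIB3, a pseudokinase that feeds back on ATF4, ran from 8.55 to 9.13 with a median of 8.87 in L-1236 and from 8.35 to 8.57 with a median of 8.42 in U-HO1. Its log2 difference was -0.45 (SE 0.09, adjusted p = 0.00166), and a single array of each line overlapped. CEBPG, a leucine zipper partner of ATF4, averaged 8.84 ± 0.21 (SD, n = 6) in L-1236 and 8.49 ± 0.07 in U-HO1, a log2 difference of -0.35 (adjusted p = 0.00483).

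The calls of the lower ATF4 targets depended on which arrays were used. With the labelled control arrays alone 0 of the 5 were called, at adjusted p = 0.077 for TRIB3, 0.102 for SESN2, 0.148 for CHAC1, 0.205 for CEBPG and 0.241 for DDIT3, while all 5 differences stayed negative. With the labelled knockdown arrays alone 4 of the 5 were called, and DDIT3 was not (adjusted p = 0.107). Without labelled knockdown replicate 1 and labelled control replicate 3 of each line, 3 of the 5 were called, and CHAC1 and DDIT3 had adjusted p = 0.0813 and 0.160. Of the 6 targets that were not called, ASNS, the asparagine synthetase, had the largest difference (0.34, 95% interval 0.02 to 0.66, adjusted p = 0.0948). PPP1R15A (GADD34), which directs dephosphorylation of eIF2, averaged 9.28 in L-1236 and 9.27 in U-HO1, with a 95% interval of the difference from -0.31 to 0.29. CEBPB averaged 8.63 and 8.69. VLDLR, STC2 and NUPR1 averaged 6.23, 6.07 and 6.66 in L-1236 and 6.21, 6.09 and 6.73 in U-HO1, below the array medians, and no detection call is given with which to say that they lie above background.

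The 13 ER chaperones and folding factors split between the lines. In U-HO1 3 were higher, 6 were lower and 4 were not called, with a median log2 difference of -0.07, and all 9 that were called had arrays that did not overlap between the lines. Of all probe sets 18% were called higher and 17.1% lower, and of those above the median level 28.2% and 26.1%. The arrays of U-HO1 lay wholly above for 11.8% of all probe sets and wholly below for 11.5%. Without labelled knockdown replicate 1 and labelled control replicate 3 of each line, 3 were higher and 5 lower. DNAJC3 (P58IPK), a cochaperone of the ER lumen, ran from 8.21 to 8.88 with a median of 8.35 in L-1236 and from 7.35 to 7.60 with a median of 7.52 in U-HO1. The difference of -0.91 (SE 0.09, 95% interval -1.11 to -0.70, adjusted p = 8.52e-06) was a level 1.88-fold higher in L-1236. The lectin chaperone CALR read 11.53, 11.58 and 11.43, and 11.59, 11.50 and 11.62 in L-1236. Its U-HO1 arrays read 11.11, 10.86 and 10.93, and 10.84, 11.09 and 11.02, for a log2 difference of -0.56 (SE 0.06, adjusted p = 1.46e-05). The disulfide isomerase PDIA4 ran from 9.22 to 9.47 with a median of 9.35 in L-1236 and from 8.64 to 8.96 with a median of 8.79 in U-HO1, a log2 difference of -0.56 (SE 0.06, adjusted p = 1.84e-05). HYOU1, the nucleotide exchange factor of the ER HSP70, ran from 10.07 to 10.35 with a median of 10.19 against 9.44 to 9.80 with a median of 9.67, a log2 difference of -0.54 (SE 0.07, adjusted p = 3.42e-05). PDIA6, another disulfide isomerase, differed by -0.48 (adjusted p = 0.000144).

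HSPA5 (BiP), the HSP70 of the ER, read 11.37, 11.34 and 11.46 on labelled control and 11.66, 11.50 and 11.55 on labelled knockdown arrays of L-1236. In U-HO1 it read 11.30, 10.91 and 11.24, and 11.17, 11.25 and 11.33. The highest U-HO1 array and the lowest L-1236 array were nearly level, and the log2 difference was -0.28 (SE 0.07, adjusted p = 0.00742). It had adjusted p = 0.104 with the labelled control arrays alone and 0.0934 without labelled knockdown replicate 1 and labelled control replicate 3 of each line. Among its J-domain cochaperones the direction was divided. DNAJB9 (ERdj4) read 7.03, 7.17 and 7.13, and 7.28, 7.22 and 7.25 in L-1236, and 7.82, 7.78 and 7.90, and 7.69, 7.93 and 7.82 in U-HO1. Every U-HO1 array was above every L-1236 array, by a log2 difference of 0.64 (SE 0.05, 95% interval 0.53 to 0.76, adjusted p = 1.28e-06). DNAJB11 (ERdj3) was higher in U-HO1 by 0.47 (SE 0.06, adjusted p = 5.75e-05), while DNAJC3 was lower as given above. The paired lectin chaperones were divided too. CANX, the membrane-bound partner of CALR, ran from 12.30 to 12.50 in L-1236 and from 12.62 to 12.77 in U-HO1, a log2 difference of 0.31 (SE 0.06, adjusted p = 0.000835). Not called were HSP90B1 (GRP94) at 0.19 (adjusted p = 0.109), CRELD2 at 0.18 (adjusted p = 0.0525), SDF2L1 at -0.07 (adjusted p = 0.48) and MANF at 0.04 (adjusted p = 0.692).

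**Figure D3:**
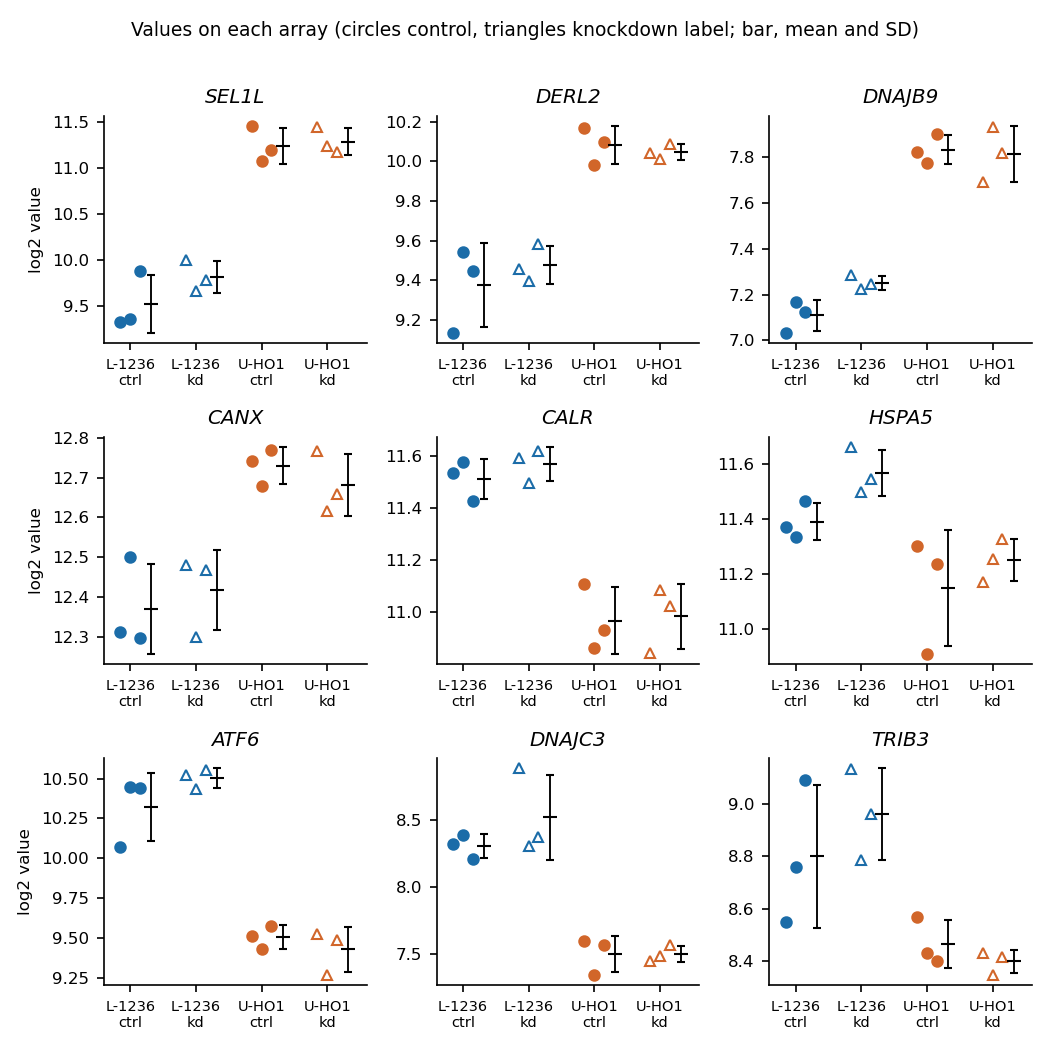
Each panel shows the log2 values of a gene on the 12 arrays by line and label (ctrl, labelled control; kd, labelled knockdown), with black bars for the mean and SD of 3 arrays; the axes do not start at 0. The lines separate for SEL1L, DERL2, DNAJB9, CANX, CALR, HSPA5, ATF6 and DNAJC3, and overlap for TRIB3.

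Most of the 7 listed ER degradation genes were higher in U-HO1. Of these 7 genes, 5 were higher there, 1 was lower and 1 was not called, and the median log2 difference was 0.51 beside 0.02 over all probe sets. Of all probe sets 18% were higher and 17.1% lower, and of those above the median level 28.2% and 26.1%. Of 11 other ER degradation genes, read further below, 1 was higher and 6 were lower. The next counts are again of the 7. Without labelled knockdown replicate 1 and labelled control replicate 3 of each line, 4 were higher and 0 lower. SEL1L, the adaptor of the HRD1 ubiquitin ligase, read 9.33, 9.36 and 9.89 on labelled control and 10.01, 9.67 and 9.79 on labelled knockdown arrays of L-1236. The U-HO1 arrays read 11.45, 11.07 and 11.20, and 11.45, 11.24 and 11.17. The difference of 1.59 (SE 0.11, 95% interval 1.35 to 1.83, adjusted p = 2.35e-07), a 3.01-fold higher level, was the largest of the 40 genes. SYVN1, the HRD1 ligase itself, ran from 8.53 to 8.78 with a median of 8.65 in L-1236 and from 8.76 to 9.08 with a median of 8.82 in U-HO1. Its log2 difference was 0.23 (SE 0.07, adjusted p = 0.031), with overlap of the lines, and the call was lost with labelled control arrays alone (adjusted p = 0.117) and with labelled knockdown arrays alone (0.193). SEL1L and SYVN1 act in 1 complex and differed between the lines by unlike amounts, though the difference between the genes was not tested.

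The derlins, which help to pull misfolded proteins out of the ER, did not move together. DERL2 ran from 9.13 to 9.58 with a median of 9.45 in L-1236 and from 9.98 to 10.17 with a median of 10.07 in U-HO1. The log2 difference was 0.64 (SE 0.07, adjusted p = 1.68e-05). DERL1 ran from 10.22 to 10.86 with a median of 10.72 and from 11.08 to 11.26 with a median of 11.18, a log2 difference of 0.51 (SE 0.09, adjusted p = 0.000749). For both, the lowest array was L-1236 labelled control replicate 1, and the lines did not overlap. DERL3, the derlin of secretory tissues, averaged 7.51 ± 0.10 (SD, n = 6) in L-1236 and 7.29 ± 0.09 in U-HO1, a log2 difference of -0.23 (SE 0.06, adjusted p = 0.0109). It had adjusted p = 0.096 with labelled control arrays alone, 0.0624 with labelled knockdown arrays alone and 0.0963 without labelled knockdown replicate 1 and labelled control replicate 3. HERPUD1, a membrane protein that assembles the HRD1 complex, ran from 10.11 to 10.80 with a median of 10.61 in L-1236 and from 10.85 to 11.41 with a median of 11.22 in U-HO1. The 2 ranges come within 0.05 of each other without crossing, and the log2 difference was 0.60 (SE 0.12, adjusted p = 0.00193), or 0.49 (adjusted p = 0.064) with labelled knockdown arrays alone. EDEM1, which trims the sugars of proteins bound for degradation, was not called (-0.14, adjusted p = 0.0871). SEC61B, the translocon subunit, averaged 10.20 and 10.36 and was not called (0.16, adjusted p = 0.0567).

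To set the roles side by side on each array, the values of each gene were centred on its mean and averaged over the genes of a role. The mean of the degradation genes separated the lines on every array, from -0.46 to -0.08 in L-1236 and from 0.18 to 0.28 in U-HO1. SEL1L had the largest difference in it (1.59), 4 of the 7 genes separated the lines singly, and EDEM1 and DERL3 went the other way. The mean of the ATF4 targets did not separate the lines, with -0.10 to 0.21 in L-1236 and -0.20 to 0.12 in U-HO1. The chaperone means overlapped as well, with -0.05 to 0.13 and -0.18 to 0.02. Single chaperones did separate the lines, 3 with U-HO1 above and 6 below, and opposite directions offset each other in the mean. Of all probe sets 11.8% separated the lines with U-HO1 above and 11.5% with U-HO1 below. The gap between the means of ATF4 targets and chaperones averaged -0.002 in L-1236 and 0.002 in U-HO1, equal and opposite because of the centring. Over single arrays it ran from -0.15 to 0.22 and from -0.17 to 0.30. The 2 highest gaps were those of U-HO1 labelled control replicate 2 (0.30) and L-1236 labelled control replicate 3 (0.22). On the former, 5 of 12 ATF4 targets had their highest value within U-HO1 and 6 of 13 chaperones their lowest. On the latter, 7 of 13 chaperones had their lowest value within L-1236. The range of this gap within a line was wider than the difference between the lines.

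**Figure D4:**
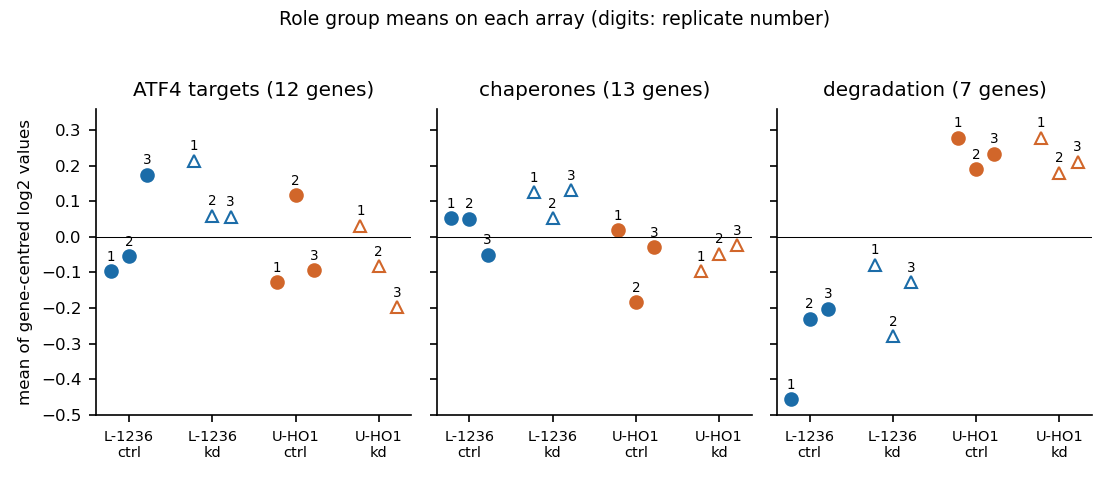
Points are means over the genes of a role on each array, after centring each gene on its mean over 12 arrays, in log2 units; circles are labelled control, triangles labelled knockdown, and digits are replicate numbers. The means separate the lines for the degradation genes and overlap for the ATF4 targets and the chaperones, where genes of opposite direction offset each other.

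Spread between arrays of the same group was read for each role. The SD left within groups had a median of 0.168 over the 12 targets and 0.111 over the 13 chaperones, beside 0.123 over all probe sets and 0.149 over those above the median level. It was 0.354 for DDIT3, 0.340 for CHAC1, 0.295 for ASNS and 0.281 for PPP1R15A, and 4 of 12 targets lay above the 90th percentile of all probe sets (0.245). Of the 40 genes, 10 lay above the upper quartile of all probe sets (0.178). In L-1236 the high array was often labelled knockdown replicate 1, where 7 of 12 targets had their highest value of the line. The low array was labelled control replicate 1, with the lowest value of 7 of 12 targets, of all 3 transcription factors and of 5 of 7 degradation genes. That array also had the highest median over all probe sets of the 12 (7.09), and the part of this in its low readings was not tested.

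In L-1236, the labelled knockdown was compared with the labelled control by the criteria of the submitters, who asked for a fold of 1.5 or more and a false discovery rate within 25%. These called 0 of the 40 genes and 0 of all probe sets (0%). At an unadjusted p under 0.05 limma gave 0 of the 40 genes and 1542 of 32321 probe sets. Of the 40 genes, 34 had a positive difference and 6 a negative one, with a median log2 difference of 0.11 and a range from -0.16 to 0.32. Over all probe sets the median was -0.009 with 46.7% positive, and over those above the median level it was 0.04 with 61.4% positive. With quantile normalization 32 of the 40 were positive with a median of 0.05, beside 53.5% of all probe sets. With centred array medians 39 were positive with a median of 0.17, beside 69.5% of all probe sets. The size of this shift thus moved with the scaling. Without labelled control replicate 1, whose readings were low, 30 were positive and the median was 0.05, beside 49.2% of all probe sets positive. Without labelled knockdown replicate 1 and labelled control replicate 3, 30 were positive with a median of 0.12, beside 44.2%.

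The 6 L-1236 genes named by their p-values are not results past a threshold. NUPR1, a small chromatin protein induced by stress, read 6.81, 6.75 and 6.67 on labelled control and 6.60, 6.62 and 6.53 on labelled knockdown arrays. Its log2 difference was -0.16 (95% interval -0.33 to 0.01, adjusted p = 0.925), and its labelled knockdown arrays lay below the labelled control. EIF2AK4 read 9.25, 9.60 and 9.39, and 9.53, 9.60 and 9.77, a log2 difference of 0.22 (95% interval -0.02 to 0.46). SEL1L, with its values as given above, differed by 0.29 (95% interval -0.04 to 0.63) and DNAJB9 by 0.14 (95% interval -0.02 to 0.31), the latter with no overlap. CRELD2 differed by -0.06 and VLDLR by -0.05, and both turned positive with centred array medians. Labelled knockdown arrays lay wholly above labelled control for 5 of the 40 genes (SESN2, EIF4EBP1, HSPA5, DNAJB9 and HYOU1), against 3.24% of all probe sets. They lay wholly below for 1 (NUPR1), against 7.45%. None of these passed the test.

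In U-HO1 the submitters' criteria called 0 of the 40 genes and 0 of all probe sets (0%). At an unadjusted p under 0.05 limma gave 1 of the 40 genes and 339 of 32321 probe sets. Of the 40 genes, 15 had a positive difference and 25 a negative one, with a median of -0.02 beside -0.002 over all probe sets. The gene at an unadjusted p under 0.05 was EIF4EBP1 (log2 difference -0.22, 95% interval from -0.44 to just below 0), whose labelled knockdown arrays overlapped the labelled control. CEBPB differed by -0.13 (95% interval -0.40 to 0.14) and ERN1 by -0.06 (95% interval -0.23 to 0.12). On the positive side stood HYOU1 and HSPA5, each at 0.10, and PDIA6 at 0.07. Those of HSPA5 and PDIA6 were -0.02 each without labelled control replicate 2, the array with the lowest chaperones. The labels did not separate the arrays for any of the 40 genes in U-HO1, against 1.8% of all probe sets wholly above and 1.99% wholly below.

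The 2 label effects were then set against each other. Their difference was called for 0 of the 40 genes and for 0 of all probe sets at an adjusted p under 0.05 (0%). At an unadjusted p under 0.05 limma gave 0 of the 40 genes and 795 of 32321 probe sets. The median of the difference, U-HO1 minus L-1236, was -0.14 over the 40 genes. It was 0.003 over all probe sets, -0.05 over those above the median level, where 37 of the 40 lie, and -0.06 over all probe sets with centred array medians. For SESN2, with effects of 0.32 in L-1236 and -0.06 in U-HO1, the 95% interval of the difference ran from -0.90 to 0.15. For HSPA5, with effects of 0.18 and 0.10, it ran from -0.38 to 0.23.

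**Figure D5:**
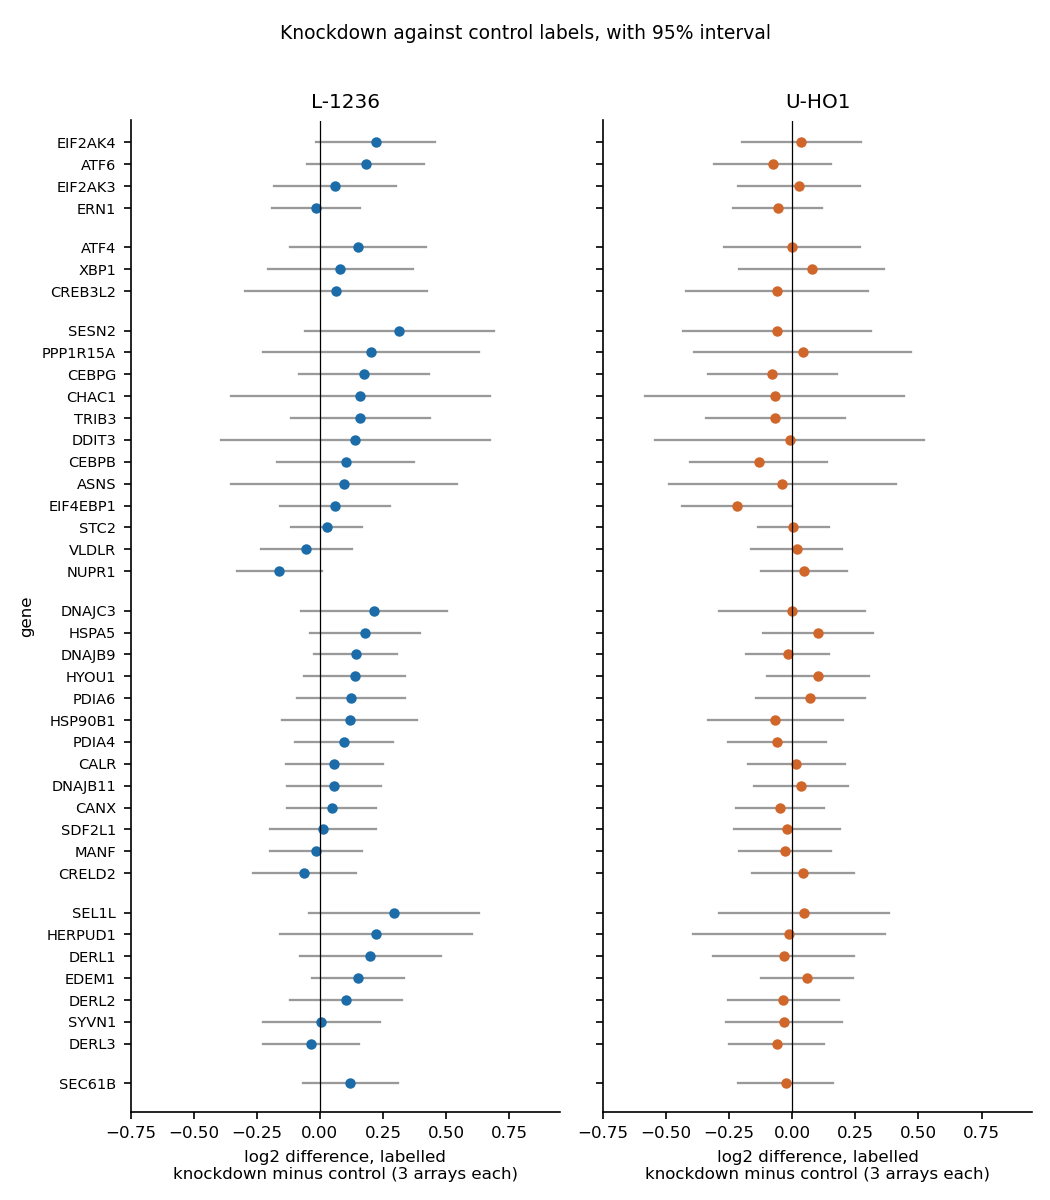
Points are log2 differences, labelled knockdown minus labelled control with 3 arrays each, in L-1236 on the left and U-HO1 on the right; bars are 95% intervals. Most L-1236 points lie to the right of 0 and no gene was called in either line.

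A further 85 measured genes of the same pathways, in 7 lists, were read by the same comparison of the lines. In U-HO1 24 were higher and 27 lower, beside 18% and 17.1% of all probe sets and 28.2% and 26.1% of those above the median level. Their median log2 difference was -0.11. Of 21 other ATF4-linked genes 7 were higher and 5 lower, and these held the largest differences in opposite directions. PHGDH, which opens serine synthesis, averaged 7.11 ± 0.19 (SD, n = 6) in L-1236 and 10.18 ± 0.20 in U-HO1, a log2 difference of 3.07 (SE 0.11, adjusted p = 7.17e-10). PSAT1, the next enzyme of serine synthesis, averaged 9.27 ± 0.22 and 7.91 ± 0.35, a log2 difference of -1.36 (SE 0.16, adjusted p = 2.32e-05). ATF5, a leucine zipper factor translated like ATF4, averaged 11.70 ± 0.33 and 9.84 ± 0.34, a log2 difference of -1.86 (adjusted p = 3.46e-06). NIBAN1 was higher in U-HO1 by 1.99 and the amino acid transporter SLC7A5 by 1.22.

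Of 12 aminoacyl-tRNA synthetases, which charge tRNAs and are known ATF4 targets in part, 2 were higher in U-HO1 and 5 lower, led by LARS1 (-1.09), EPRS1 (-0.86) and MARS1 (-0.68). Of 11 genes of the eIF2 kinases, phosphatase and eIF2B, 4 were higher and 4 lower, among them the kinases PKR (EIF2AK2, -0.80) and HRI (EIF2AK1, -0.57) on the lower side. Of 5 genes of ATF6 processing and related factors, 1 was higher, CREB3 (0.30), and 0 were lower. Of 13 other ER folding enzymes, 6 were higher and 5 lower. The ER oxidases were divided, with ERO1A higher (0.88) and ERO1B lower (-1.19), and the J-domain protein DNAJC1 was higher by 0.94. Of 11 other ER degradation genes, 1 was higher and 6 lower, with a median log2 difference of -0.20. The one that was higher was SELENOS (1.14), a membrane partner of VCP, while SELENOK (-1.06), UFD1 (-0.52) and the unfolding ATPase VCP (-0.42) were lower. The counts of this list ran opposite to those of the 7 degradation genes above, and the difference between the lists was not tested. Of 12 translocon and signal peptidase genes, 3 were higher and 2 lower, with SEC63 at 0.82 and SEC11C at 0.77. In the label comparisons 0 of the 85 genes were called in either line. At an unadjusted limma p under 0.05 there were 5 in L-1236 and 0 in U-HO1, beside 1542 and 339 of 32321 probe sets.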

How the data were processed

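The 12 arrays are 1-colour Affymetrix whole-transcript arrays. The deposited values come from the authors' processed table and run from 3.86 to 13.99, which was read as a log2 scale. Per the submitters' processing notes R 2.8.1 made them. Their background correction, normalization and genome build are not given in the sources. The table has 32321 probe sets, of which 19158 carry 1 gene symbol, 1388 several and 11775 none here. A different scale would change fold sizes but not the order of arrays.

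Values were used as deposited. A linear model with 4 group means over all 12 arrays (lmFit and eBayes of limma 3.58.1, R 4.3.3, with 8 residual degrees of freedom) gave the line, label and interaction contrasts, with Benjamini-Hochberg adjustment over all probe sets and 95% intervals that are not adjusted. GATA3 was tested by exact permutation. The number of arrays limits the precision. On simulated data the line comparison recovered 82 of 100 changes of 1.5-fold and 98 of 100 of 2-fold, with 13 false calls over 32321 probe sets. The simulated noise was independent between probe sets, so shifts shared by the genes of an array were not tested. The genes, roles and other pathway lists were chosen with earlier results of these data known. Full values are given for ATF4, XBP1, HSPA5, DDIT3 and up to 5 called genes with the largest difference per role. For the label comparisons the 3 smallest p each way are named, and for the 7 other lists up to 3 genes each way. Genes named outside this rule were chosen after their values were seen. Promoter motifs were searched on both strands with Python 3.11.15. Protein sequences were not used here. Alternatives were another scaling, filter, probe set rule, prior and array weights (statmod 1.5.0), a replicate block, each label alone, and leaving out arrays. Each label alone was a contrast of the main fit, with the spread of all 12 arrays, and not a new fit. The replicate numbers did not pair the samples, with correlations of deviations between labels from -0.40 to 0.32.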

Additional observations from a re-analysis of the deposited data

How the results depend on the processing

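Some counts over the stress genes in the comparison of lines moved by more than 1.5 times, and the cause was not tested unless fewer arrays or a stricter rule made it. Asking also for a fold of at least 1.5 left 5 genes higher and 4 lower in U-HO1, beside 6.76% and 6.22% of all probe sets. The same rule left 1826 higher and 1677 lower of 16160 probe sets above the median level. Among the stress genes left, 2 ATF4 targets were lower, 1 chaperone higher, 1 chaperone lower, 3 degradation genes higher and 0 lower. With labelled control arrays alone 6 genes were lower, with 0 ATF4 targets and 0 degradation genes among them. With labelled knockdown arrays alone 3 degradation genes were higher and 0 lower. The SE within 1 label was larger than over both, 0.13 beside 0.09 for TRIB3. These counts are therefore not read as a dependence on the label. Leaving out labelled knockdown replicate 1 and labelled control replicate 3 of each line, chosen after seeing the data because GATA3 went against their labels, left 3 ATF4 targets and 0 degradation genes lower. That setting called 4722 of all 32321 probe sets lower, beside 5513 with all arrays. Leaving out each array in turn gave 1 to 2 degradation genes lower, beside 5055 to 5435 of all probe sets. The replicate block moved the counts less, to 9 genes higher and 14 lower, and the label comparisons still called 0. Over all 32321 probe sets the block called 5527 higher and 5145 lower, beside 5827 and 5513 without it. The counts over all probe sets for each label alone are not given here.

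Of 25 called genes, 13 kept their call in every alternative, 12 lost it in at least 1, and 0 changed sign. DDIT3 and SYVN1 lost theirs in 10 of 23 alternatives each. Of 15 genes not called, 7 were called in at least 1 alternative and 5 changed sign. VLDLR turned to 0.0432 without the doubted arrays and 0.0204 with labelled knockdown arrays alone, and ran from -0.0432 to 0.0131 with each array left out. CEBPB turned to -0.00499 with array weights and -0.0545 with labelled knockdown arrays alone, and ran from -0.000732 to 0.114. PPP1R15A turned to 0.113 without the doubted arrays and 0.0699 with labelled control arrays alone, and ran from -0.119 to 0.0781. STC2 ran from -0.00305 to 0.0342, and NUPR1 turned to -0.0321 with labelled control arrays alone. In the L-1236 label comparison CRELD2 turned to 0.00122 with centred medians and 0.00317 with array weights, and ran from -0.131 to 0.0161, while VLDLR turned to 0.00438 with quantile normalization and 0.00838 with centred medians, and ran from -0.0977 to 0.00122. In U-HO1 HSPA5 ran from -0.0181 to 0.177 and PDIA6 from -0.0200 to 0.138.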
